A study of Mus musculus with 45 samples.

Results

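Wnt7b, which encodes a secreted ligand of the Wnt family, is 1 of the 36172 genes listed in each deposited table. It was taken by its gene symbol in the tables of 3 tissues, and it was chosen because its retina values differed between tamoxifen and vehicle libraries in these same data. Its retina levels by treatment are therefore given as a description, with no test. RNA-seq was done on retina, cortex and hippocampus from mice given tamoxifen or its vehicle, sunflower oil. All animals were aged 3 months, and each treatment was given to females and to males, which makes 4 groups in each tissue. Tamoxifen binds oestrogen receptors and serves in mouse genetics as the inducer of Cre recombinase fused to such a receptor, and the question was whether giving it changes RNA levels in these tissues. The sample labels give no strain, genotype, transgene, dose or interval after treatment, so no Cre driver can be named here.

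Wnt ligands are lipid-modified by Porcn, carried to the cell surface by Wls, and bind Frizzled receptors with the co-receptors Lrp5 and Lrp6. In the canonical branch this stabilises beta-catenin, which acts with Tcf and Lef factors on targets such as Axin2, a feedback inhibitor. Wnt7b and its close relative Wnt7a are known in the central nervous system for signalling through Gpr124 and Reck to endothelial cells, where they promote vessel ingrowth and the blood-brain barrier. In the retina the secreted protein norrin, encoded by Ndp, acts through Fzd4, Lrp5 and Tspan12 in a parallel vascular pathway.

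Wnt7b (gene ID 22422) lies on the minus strand of mouse chromosome 15, from base 85535437 to base 85581821 of GRCm38, a span of 46385 bases. GENCODE M21 lists 6 transcripts there, whose merged exons cover 4898 bases. By the bounds in the deposited tables, the 5′ end of the gene overlaps AU022754, a gene on the plus strand from base 85581142 to base 85593708, over 680 bases. The GENCODE transcripts of both genes reach further and overlap over 2222 bases, from base 85580252 to base 85582473. The strand setting of the authors' counting is not stated in what was used here, so reads from the overlap cannot be told apart between both genes. Of 4894 stretches of 50 bases in Wnt7b transcripts, 190 (3.88%) also occur in transcripts of another gene. Each of these 190 is shared with AU022754 on the opposite strand, and none is shared with Wnt7a.

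The coding sequences of Wnt7b (1071 bases) and Wnt7a (1050 bases) are identical at 812 of 1046 aligned positions (77.6%), with a longest identical run of 23 bases. The most alike stretch of 90 coding bases is printed because it is where reads of both genes would be most easily mistaken for each other. Capitals mark the 8 bases that differ within it, and both sequences are from GENCODE M21 on GRCm38, read 5′ to 3′ on the minus strand, at chr15:85537416-85537505 for Wnt7b and chr6:91365876-91365965 for Wnt7a.
Wnt7b: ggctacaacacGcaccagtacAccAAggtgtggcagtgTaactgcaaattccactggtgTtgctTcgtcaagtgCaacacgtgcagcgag
Wnt7a: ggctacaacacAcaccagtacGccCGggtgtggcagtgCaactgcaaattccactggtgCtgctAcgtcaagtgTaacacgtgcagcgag
The differing bases are spread along the stretch.

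The comparisons used 43 libraries from 15 animals, with 14 from the cortex, 14 from the hippocampus and 15 from the retina. Total counts per library were 10259768 to 22375163 in the cortex, 31154309 to 44153244 in the hippocampus and 9143811 to 18253874 in the retina. Levels are in CPM, the rounded count scaled to a library total of 1000000 counts after TMM normalisation. Animal numbers recur across tissues, so the tissues share animals, and replicates within a group are separate animals. Trpm1, a channel gene of retinal bipolar cells, lay between 325 and 473 CPM in the retina libraries, against means of 0.415 CPM in the cortex and 0.0779 CPM in the hippocampus. A further cortex library, labelled male tamoxifen animal 962, held 4567 counts and was left out. It had 0 Wnt7b counts, at a depth where 3 counts equal 657 CPM.

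In the hippocampus, Wnt7b was the Wnt ligand gene with the highest level per exon length. Its level in CPM per kilobase of merged exon, pooled over libraries, was 11.6 with tamoxifen and 11.4 with vehicle, which ranked it 1 of the 19 Wnt ligand genes in both. In the cortex it stood at 6.87 and 6.15 per kilobase and ranked 2, after Wnt9a at 8.20 and 6.68. In the retina it ranked 8 with tamoxifen at 0.343 and 17 with vehicle at 0.0066 per kilobase. The retina's ligand of highest level per exon length was Wnt2b, at 3.10 with tamoxifen and 3.44 with vehicle, followed by Wnt5b at 1.69 and 1.55.

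**Figure D1:**
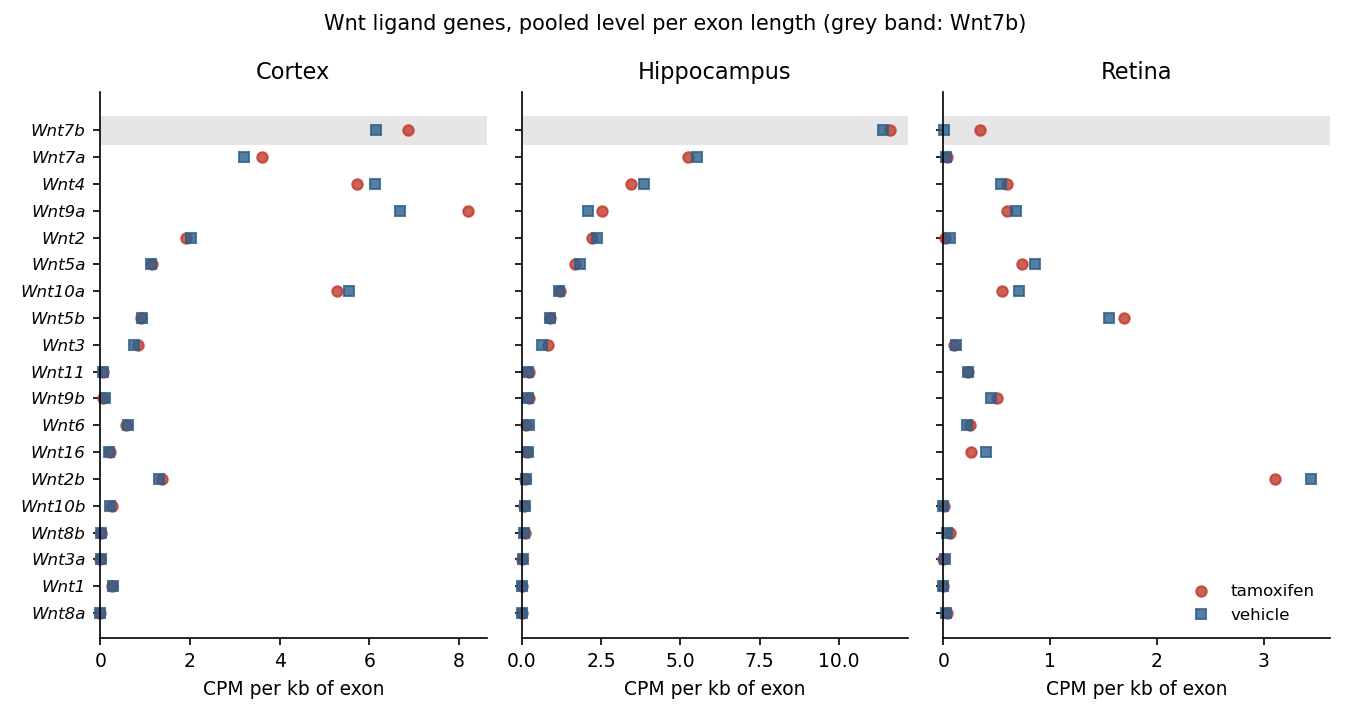
Pooled level of each of the 19 Wnt ligand genes per kilobase of merged exon (horizontal axes, CPM per kilobase, a separate scale for each tissue) in tamoxifen libraries (red circles) and vehicle libraries (blue squares). Wnt7b, in the grey band, is at the top of the hippocampus order at 11.6 and 11.4, and at 0.343 and 0.0066 in the retina.

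Across the 3 tissues the Wnt7b ranges did not overlap. Hippocampus libraries lay between 44.8 and 69.8 CPM, with a mean of 56.2 ± 6.58 (SD, n = 14). Cortex libraries lay between 23.9 and 41.3 CPM, with a mean of 31.5 ± 4.74 (SD, n = 14). Retina libraries lay between 0 and 2.92 CPM. Every hippocampus library lay above every cortex library, and every cortex library above every retina library. These tables are of separate tissues, and TMM scaling was done within each tissue, so the tissues were not scaled against each other. The order was not tested. The share of all genes with such an order is not given here, so nothing particular to Wnt7b is read from it. In such bulk samples, fewer cells of a type and less RNA per cell cannot be told apart.

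In the retina, Wnt7b was at or near 0 in vehicle animals and low but counted in each tamoxifen animal. The female tamoxifen retinas held 37 Wnt7b counts in animal 951 (2.33 CPM), 21 in 952 (1.29 CPM), 19 in 953 (1.84 CPM) and 20 in 954 (1.52 CPM). The female vehicle retinas of animals 955, 957 and 958 held 0 counts each, and over all 3 a count of 3 would equal 0.0976 CPM. The groups did not overlap, and the female tamoxifen values differed from each other about as much as counting allows, with a variance 1.81 times the counting error.

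The male tamoxifen retinas held 28 Wnt7b counts in animal 959 (1.74 CPM), 29 in 960 (2.92 CPM), 17 in 961 (1.30 CPM) and 6 in 962 (0.571 CPM). The male vehicle retinas held 2 counts in animal 963 (0.109 CPM), 1 in 966 (0.0857 CPM) and 0 in 964 and 965. Animal 960 was the highest and animal 962 the lowest of the tamoxifen animals, and this group spread more than counting alone gives, with a variance 6.19 times the counting error. The lowest tamoxifen value of either sex, 0.571 CPM, lay above the highest vehicle value, 0.109 CPM.

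Pooled over both sexes, tamoxifen retinas had 177 Wnt7b counts, or 1.68 CPM with an exact 95% Poisson interval of 1.44 to 1.95. Vehicle retinas had 3 counts, or 0.0324 CPM with an interval of 0.00669 to 0.0948. These intervals cover counting error only. By sex, the pooled tamoxifen levels were 1.75 CPM (1.42 to 2.13) in females and 1.61 CPM (1.28 to 2.01) in males, whose intervals overlap. Each of the 8 tamoxifen retinas lay above each of the 7 vehicle retinas, as did 9 of the 14781 genes tested in the retina (0.0609%). That contrast chose the gene, so nothing is read from this count.

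**Figure D2:**
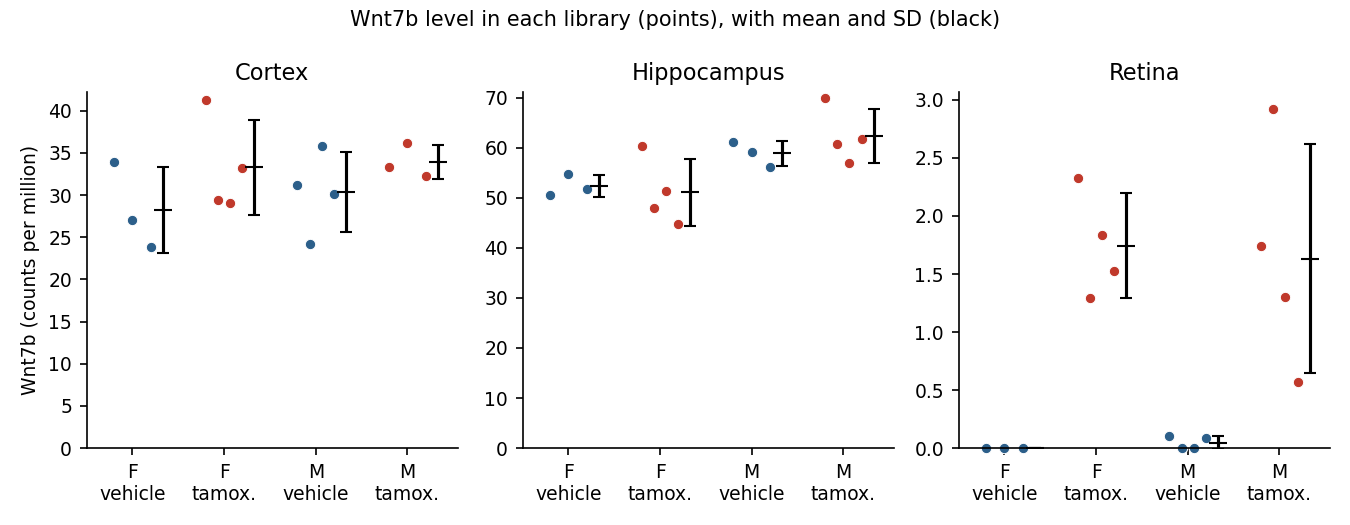
Wnt7b level in CPM (vertical axes, a separate scale from 0 for each tissue) in each library, by sex (F, M) and treatment, with the group mean and SD in black. In the retina the 8 tamoxifen libraries sit between 0.571 and 2.92 CPM and the 7 vehicle libraries between 0 and 0.109 CPM, while in both brain tissues the treatments overlap.

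A search of all genes in the retina tables asked for a pattern like that of Wnt7b: at most 3 counts over the 7 vehicle libraries together and at least 5 counts in each of the 8 tamoxifen libraries. Of 18887 genes with at most 3 vehicle counts, Wnt7b was the only 1 that met it. No gene met the reverse. These limits were chosen after the Wnt7b counts had been seen, so the search describes how rare the pattern was and tests nothing.

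In the cortex, Wnt7b did not pass the test for tamoxifen. The female tamoxifen libraries had 41.3, 29.4, 29.1 and 33.2 CPM in animals 951 to 954 (mean 33.3 ± 5.68, SD, n = 4), and the female vehicle libraries had 33.9, 27.0 and 23.9 CPM in animals 955, 957 and 958 (28.3 ± 5.10, n = 3). The male tamoxifen libraries had 33.4, 36.2 and 32.2 CPM in animals 959 to 961 (33.9 ± 2.02, n = 3), and the male vehicle libraries had 31.2, 24.2, 35.8 and 30.1 CPM in animals 963 to 966 (30.3 ± 4.75, n = 4). Treatments overlapped in both sexes. The log2 fold change averaged over the sexes was 0.19 ± 0.09 (SE), with an adjusted p of 0.553 in edgeR's quasi-likelihood test over all genes (unadjusted p = 0.0554). Its span of 2 standard errors either way ran from 0.0035 to 0.38. Without animals 958 and 960, whose cortex libraries were rich in choroid plexus transcripts, it was 0.11 ± 0.10. In the same comparison 0.606% of genes tested were called, at an adjusted p under 0.05. The effect was 0.23 ± 0.14 in females and 0.15 ± 0.13 in males, and the difference between the sexes of -0.08 ± 0.19 did not pass (adjusted p = 0.988, edgeR).

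In the hippocampus, the tissue of highest Wnt7b, treatments overlapped as well. The female tamoxifen libraries had 60.3, 48.0, 51.3 and 44.8 CPM in animals 951 to 954 (51.1 ± 6.67, SD, n = 4), and the female vehicle libraries had 50.5, 54.7 and 51.8 CPM in animals 955, 957 and 958 (52.3 ± 2.10, n = 3). The male tamoxifen libraries had 69.8, 60.7, 56.9 and 61.7 CPM in animals 959 to 962 (62.3 ± 5.44, n = 4), and the male vehicle libraries had 61.2, 59.1 and 56.2 CPM in animals 963, 964 and 966 (58.8 ± 2.49, n = 3). Animals 951 and 959 were the highest of their sex. The log2 fold change for tamoxifen was 0.02 ± 0.06 (SE; adjusted p = 0.953, edgeR's quasi-likelihood test), with a span of 2 standard errors either way from -0.10 to 0.15. In this comparison 0.0652% of genes were called.

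The tamoxifen effect on Wnt7b also did not differ detectably between both brain tissues. In 1 fit over 28 libraries, the effect in the hippocampus minus that in the cortex was -0.16 ± 0.12 on the log2 scale (adjusted p = 1, edgeR's quasi-likelihood test), and 0 genes were called, against 742 at an unadjusted p under 0.05. The retina was kept out of this fit because its contrast chose the gene.

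Sex was a contrast that had no part in choosing the gene. Hippocampal Wnt7b was higher in males, at 56.2 to 69.8 CPM (mean 60.8 ± 4.51, SD, n = 7), than in females, at 44.8 to 60.3 CPM (51.6 ± 4.91, n = 7). The ranges overlapped between 56.2 and 60.3 CPM, and the log2 difference of 0.23 ± 0.06 (SE) had an adjusted p of 0.0256 in edgeR's quasi-likelihood test. In that comparison 17.7% of genes were called, 1630 of them higher in males and 1092 lower, and Wnt7b ranked 1588 of 15339 by p. The call ended without female animal 954 (adjusted p = 0.0525, edgeR), female animal 955 (0.0657) or male animal 963 (0.0660). In the cortex, the same difference was 0.07 ± 0.09 (adjusted p = 0.863, edgeR), where 0.0817% of genes were called.

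With carry-over of brain reads or RNA into the retina libraries in mind, other brain genes were then set beside Wnt7b. The retina level of each gene was expressed as a percentage of its mean cortex level. The pooled Wnt7b level in tamoxifen retinas was 5.34% of the cortex level (2.99% of the hippocampus level), and in vehicle retinas 0.103%. Brain RNA carried over in bulk would bring other brain genes with it. A gene's percentage in the retina holds what the retina itself makes as well as any carry-over. Whether carry-over gave the Wnt7b counts was not tested.

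Several genes of mature forebrain neurons and oligodendrocytes were far below the Wnt7b percentage. Mobp, a myelin protein gene, had 247 CPM in the cortex and 14 counts over the 8 tamoxifen retinas, 0.0539% of its cortex level. At that percentage the tamoxifen retinas would hold 1.79 Wnt7b counts together, against 177 measured. Emx1, a transcription factor gene of the dorsal forebrain, had 17.6 CPM in the cortex and 0 counts in the 8 tamoxifen retinas. A limit of 3 counts allows Emx1 up to 0.161% of its cortex level, at which Wnt7b would have 5.35 counts. Ddn, a postsynaptic protein gene with 991 CPM in the cortex, stood at 0.313% and Nrgn, a neuronal calmodulin-binding protein gene, at 0.714%. Mobp and Emx1 had the lowest percentages of their lists, and other genes of these lists stood much higher.

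Most of these percentages lay close together in both treatments. Of 12 forebrain neuron genes, 11 had counts in the cortex, and their median percentage was 1.70% in tamoxifen retinas and 1.74% in vehicle retinas. Neurod6, a transcription factor gene of cortical excitatory neurons, stood at those medians, and Tbr1, of deep-layer neurons, stood at 2.72% and 2.68%. At the Neurod6 percentage the tamoxifen retinas would hold 56.5 Wnt7b counts together, and at that of Tbr1 90.1. At that of Nptx1, the highest of the list, they would hold 922. The tamoxifen-to-vehicle ratio had a median of 0.988 over these 11 genes, and 4 of them were higher with tamoxifen. Its highest value was 1.41, for Itpka, a kinase gene of dendritic spines, with 180 counts against 112.

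The 10 oligodendrocyte genes had a median of 0.871% with tamoxifen and 1.01% with vehicle, with a median ratio of 1.03, and 7 of the 10 were higher with tamoxifen. The highest ratio, 4.10, was that of Mobp, with 14 counts against 3. Below the Wnt7b percentage with tamoxifen lay 9 of 11 forebrain neuron genes and 9 of 10 oligodendrocyte genes. Against the hippocampus, where Wnt7b stood at 2.99%, 6 of 11 and 7 of 10 lay below it, and the Mobp percentage of 0.0617% corresponds to 3.65 Wnt7b counts. Against the cortex, the exceptions were Nptx1, Neurod2 and Cnp, 3 genes with at least 1385 counts in the tamoxifen retinas, whose percentages in vehicle retinas were also above that of Wnt7b.

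**Figure D3:**
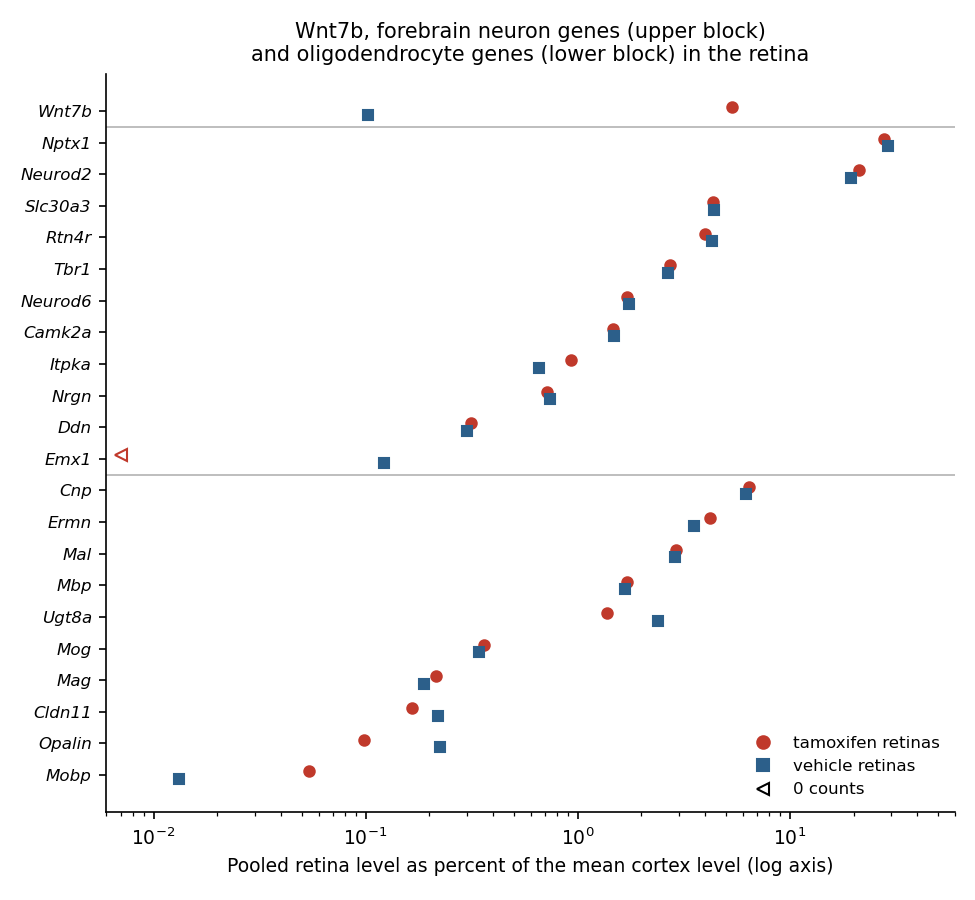
Pooled retina level of each gene as a percentage of its mean cortex level (horizontal log axis) in tamoxifen retinas (red circles) and vehicle retinas (blue squares), with 0 counts drawn as an open triangle at the left edge. Wnt7b moves from 0.103% to 5.34%, whereas Tbr1 stands at 2.68% and 2.72% and Neurod6 at 1.74% and 1.70%.

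A second comparison did not start from those lists, though it came to share Mobp, Mog, Mag and Cldn11 with the oligodendrocyte list. A search took the genes at or above Wnt7b in both brain tissues and at or below its pooled retina level of 0.911 CPM, which left 17 genes. The limit on the retina level caps their percentages, so their standing below Wnt7b is part of the rule and no result. What the rule left free is the treatment: summed over the 17, the retina level was 0.309% of the cortex level with tamoxifen and 0.305% with vehicle. In these sums, moves in both directions offset each other. Kcnv1 stood at 0.549% with tamoxifen and 1.13% with vehicle, and Bcas1 at 0.361% and 0.193%. Of the 17 genes, 11 had a higher percentage with tamoxifen, and none had each tamoxifen retina above each vehicle retina. Mobp came nearest to that, with 5 tamoxifen retinas above each vehicle retina, followed by Bcas1 with 4.

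Taken library by library, the 17 genes stood at 0.247% to 0.398% of their cortex level in tamoxifen retinas and at 0.260% to 0.348% in vehicle retinas, so the treatments overlapped. Animal 951 had the highest percentage of the 15 libraries, 0.398%, with Wnt7b at 7.40% of its cortex level. Animal 960, with the highest Wnt7b at 9.27%, stood at 0.370%. Animal 959, with Wnt7b at 5.5%, had the lowest percentage, 0.247%. The vehicle retina of animal 958 stood at 0.348% with 0 Wnt7b counts. How both percentages go together over the animals was not tested.

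Wnt7a, the closest relative of Wnt7b, was a brain gene with few counts in either group of retinas. It lay at 10.4 to 12.9 CPM in tamoxifen and 9.15 to 11.4 CPM in vehicle cortex libraries. In the retina it had 12 counts over the tamoxifen libraries, 10 of them in animal 959 and 2 in animal 951, and 6 counts over the vehicle libraries, 2 each in animals 958, 963 and 965. The other 10 retina libraries had 0 Wnt7a counts, including 6 with 6 to 29 Wnt7b counts. Tamoxifen and vehicle retinas overlapped, and Wnt7a was too low in the retina to be tested.

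The genes around Wnt7b showed no such difference in the retina. Within 500 kb on either side the tables list 20 genes, of which 12 were tested. Of these, 0 were called in edgeR's quasi-likelihood test and 0 had an unadjusted p under 0.05, with log2 fold changes from -0.10 to 0.34 and a smallest adjusted p of 0.822. Over all genes 0.0474% were called, and 1055 of 14781 had an unadjusted p under 0.05. AU022754, the gene that overlaps Wnt7b, lay at 0.305 to 1.24 CPM in tamoxifen and 0.164 to 1.38 CPM in vehicle retinas (0.04 ± 0.36, SE; adjusted p = 0.996, edgeR). The nearest tested neighbour on the other side, Atxn10, the ataxin-10 gene, had a change of 0.01 ± 0.04, and Ppara, a nuclear receptor of lipid metabolism, of -0.06 ± 0.08.

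Cell types that a dissected retina can carry along were compared by the summed CPM of their marker lists. Lens genes ranged from 2.96 to 535 CPM in tamoxifen retinas and from 3.74 to 9.43 CPM in vehicle retinas. By this sum, 4 of the 8 tamoxifen retinas lay above each vehicle retina. All 12 tested lens genes had positive log2 fold changes, with a median of 3.60, and 0 of them were called (edgeR). The lens crystallin gene Cryaa was at 39.2 CPM in animal 951, 155 in 959, 14.1 in 962 and 2.72 in 960, and 0 in the other 4 tamoxifen retinas, against 0.143 to 1.89 CPM in vehicle retinas. The Wnt7b level in those 4 retinas without Cryaa counts was 1.29 to 1.84 CPM. Without animals 951, 959 and 962, pooled Wnt7b was 1.51 CPM in female and 2.0 CPM in male tamoxifen retinas.

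Ocular surface epithelium genes, such as the keratin gene Krt15, summed to 11.04 to 39.7 CPM in tamoxifen and 11.3 to 28.5 CPM in vehicle retinas. All 8 tested genes had positive changes, with a median of 0.46, and 0 were called, and 4 tamoxifen retinas lay above each vehicle retina. The highest sum was in animal 960, which also had the highest Wnt7b level. The lowest sum, 11.04 CPM in animal 954, was below each vehicle retina, and Wnt7b there was 1.52 CPM. Pigment epithelium genes such as Dct ranged from 71.4 to 1318 CPM with tamoxifen and from 171 to 1356 CPM with vehicle, with the highest tamoxifen sum again in animal 960 and the lowest in 954. The median sums were 172 and 489 CPM, 5 of the 10 genes had positive changes and 0 were called. The sum mostly follows Dct, Tyrp1 and Pmel. Dct had medians of 58.9 CPM with tamoxifen and 267 CPM with vehicle, whereas Rpe65 had 9.75 and 9.92 CPM and Rgr 40.6 and 34.4 CPM.

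Choroid plexus genes summed to 195 to 380 CPM with tamoxifen and 201 to 299 CPM with vehicle. Kcne2 had a median of 64.3 CPM in tamoxifen retinas, against means of 3.11 CPM in the cortex and 4.79 CPM in the hippocampus. Slc4a5 had 56.1 CPM, against 4.21 and 8.21 CPM, whereas Ttr, Kl and Prlr were lower in the retina than in both brain tissues. The sum is therefore no measure of brain tissue in the retina libraries. Of these 9 genes, 5 had positive changes and 0 were called, and 2 tamoxifen retinas lay above each vehicle retina. The highest sum was in animal 960, and the lowest in 959, where Wnt7b was 1.74 CPM. Ttr, the transthyretin gene, which is also made by pigment epithelium, was at 172 CPM in animal 960 and 130 CPM in 961, at 23.6 to 56.4 CPM in the other 6 tamoxifen retinas and at 20.9 to 61.3 CPM in vehicle retinas. The Wnt7b level in those 6 retinas was 0.571 to 2.33 CPM. The part of these cell types in the Wnt7b level of single animals was not tested.

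Markers of retinal cell types overlapped between treatments. Summed Müller glia genes, led by the glutamine synthetase gene Glul, lay at 4301 to 5461 CPM with tamoxifen and 4593 to 5248 CPM with vehicle. The amacrine list, led by Gad1, lay at 842 to 941 and 825 to 900 CPM, and the ganglion cell list, led by Nefl, at 662 to 895 and 636 to 808 CPM. Bipolar cell genes, led by Trpm1, lay at 901 to 1016 and 939 to 1047 CPM, and endothelial genes, led by Kdr, at 342 to 418 and 360 to 416 CPM. Kdr alone lay at 199 to 257 and 197 to 251 CPM, against means of 16.2 CPM in the cortex and 18.2 CPM in the hippocampus. The endothelial sum thus mostly follows Kdr. Pecam1 lay at 11.2 to 16.8 and 11.8 to 15.6 CPM, and Cldn5 at 9.07 to 15.9 and 9.54 to 13.8 CPM. No list gene of these 5 types was called. The lists of rods (19092 to 20417 and 19318 to 22212 CPM) and cones (1076 to 1266 and 1161 to 1223 CPM) overlapped as well. So did the horizontal cell list, at 11.6 to 17.4 and 14.1 to 16.5 CPM, and 0 genes of these lists were called.

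The rest of the Wnt pathway was described from 9 lists of 105 genes besides Wnt7b. In the retina 90 of them passed the filter on low counts, and 0 were called for tamoxifen in edgeR's quasi-likelihood test, with 2 at an unadjusted p under 0.05 and a smallest adjusted p of 0.685. Their median log2 fold change was -0.03, with 33 of 90 positive, beside a median of 0.00 over all genes tested. In the cortex 0 of 95 were called, with 12 at an unadjusted p under 0.05, and in the hippocampus 0 of 97, with 9. Over all genes, the retina had 7 calls, the cortex 89 and the hippocampus 10. An unadjusted p under 0.05 in edgeR's test was reached by 1055 of 14781 genes in the retina, 1379 of 14680 in the cortex and 1203 of 15339 in the hippocampus.

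Among the ligands in the retina, 5 of 10 tested had positive changes and the median was -0.04. Wnt2b lay at 10.4 to 16.5 CPM with tamoxifen and 12.2 to 17.7 CPM with vehicle, a log2 fold change of -0.12 ± 0.09 (SE). Wnt16 had the smallest p of the ligands, with -0.89 ± 0.52 (adjusted p = 0.794, edgeR). In the cortex the ligand Wnt9a had the smallest adjusted p of the whole pathway, with a change of 0.29 ± 0.08 (adjusted p = 0.150, edgeR), and Wnt7a had 0.18 ± 0.08 (adjusted p = 0.484). In the hippocampus Wnt3 had 0.38 ± 0.11 (adjusted p = 0.324) and Wnt9a 0.28 ± 0.11 (adjusted p = 0.521). Of the genes for ligand export, Porcn had -0.01 ± 0.06 in the retina and Wls -0.31 ± 0.19.

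The receptors that Wnt7b uses were present in the retina at similar levels in both treatments. Gpr124, an adhesion receptor, lay at 38.8 to 47.6 CPM with tamoxifen and 41.7 to 51.7 CPM with vehicle. Reck, its membrane-anchored partner, lay at 22.8 to 27.7 CPM with tamoxifen and 23.1 to 27.7 CPM with vehicle. Their log2 fold changes were -0.03 ± 0.06 and -0.01 ± 0.06. Of 18 receptor genes, all were tested and 0 called, with a median of -0.02, and Fzd2 had the smallest p with 0.56 ± 0.29 (adjusted p = 0.747, edgeR). In the cortex Fzd4 had 0.43 ± 0.16 (adjusted p = 0.377) and in the hippocampus Fzd9 had 0.23 ± 0.11 (adjusted p = 0.655). In the norrin pathway, Ndp had -0.05 ± 0.11, Lrp5 0.17 ± 0.11 and Tspan12 0.06 ± 0.10 in the retina.

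Inhibitors and transducers did not pass in the retina either. The secreted inhibitor Sfrp1 had -0.36 ± 0.18 (adjusted p = 0.730, edgeR) and Dkk2, which blocks the Lrp co-receptors, -0.95 ± 0.55 (adjusted p = 0.794). The transcription factor Tcf7l2 had -0.35 ± 0.16 (adjusted p = 0.690), and Znrf3, a ligase that clears Frizzled receptors and is a target itself, -0.20 ± 0.09 (adjusted p = 0.685). Values of Tcf7l2 were -0.46 ± 0.14 in the cortex (adjusted p = 0.219) and, in the hippocampus, -0.22 ± 0.09 (adjusted p = 0.544). Dkk3 in the cortex had -0.13 ± 0.04 (adjusted p = 0.245) and Sfrp2 in the hippocampus -0.39 ± 0.16 (adjusted p = 0.575).

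Target genes gave no call in the retina. Axin2, the usual readout of canonical signalling, lay at 33.7 to 39.1 CPM with tamoxifen and 29.8 to 40.8 CPM with vehicle, with a change of 0.06 ± 0.07. The 14 tested targets had a median of -0.08, with 4 positive. Nkd2, a feedback inhibitor, had the smallest adjusted p of the pathway in the hippocampus with -0.36 ± 0.09 (adjusted p = 0.263, edgeR). Among 12 genes of the endothelial barrier, the glucose transporter Slc2a1 had -0.12 ± 0.06 in the retina (adjusted p = 0.753), and the lipid transporter Mfsd2a had -0.19 ± 0.06 in the cortex (adjusted p = 0.220) and -0.21 ± 0.06 in the hippocampus (adjusted p = 0.316). DESeq2 called 1 gene in each brain tissue, Wnt9a in the cortex (0.29 ± 0.08, adjusted p = 0.0447) and Nkd2 in the hippocampus (-0.36 ± 0.09, adjusted p = 0.0321), and no pathway gene in the retina.

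**Figure D4:**
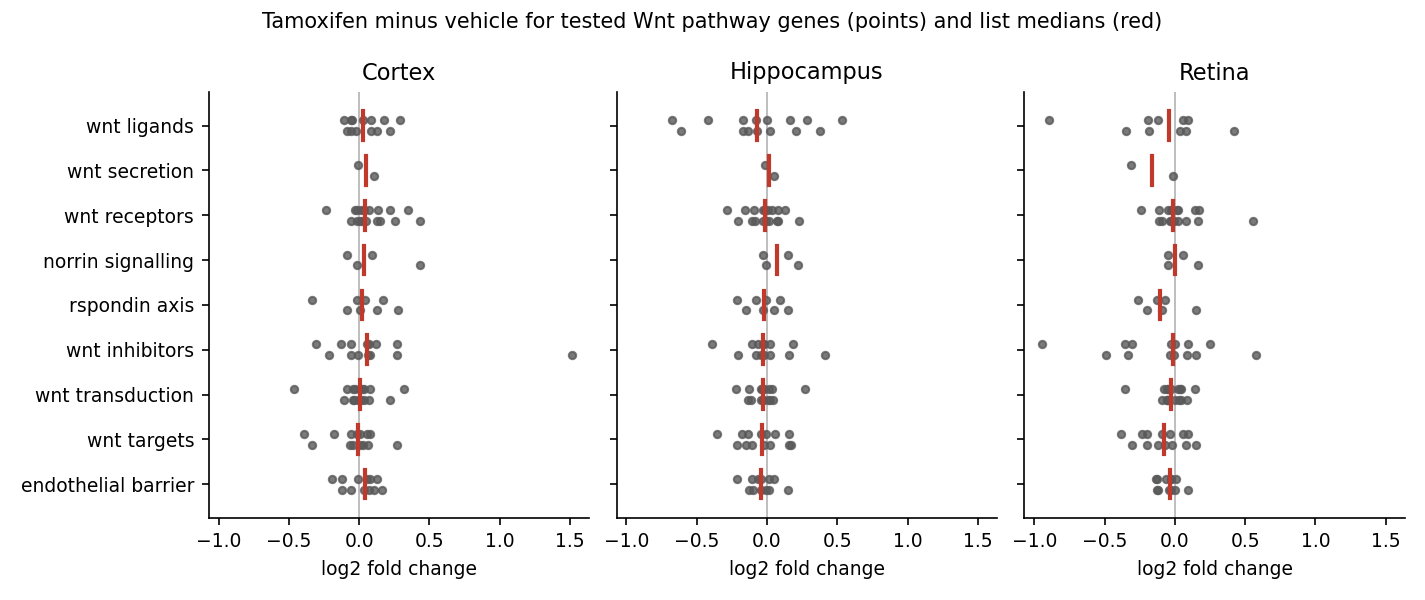
Log2 fold change of tamoxifen minus vehicle (horizontal axes) for each tested gene of 9 Wnt pathway lists (grey points) in 3 tissues, with list medians in red and Wnt7b left out. The retina medians lie close to 0, from -0.11 for the R-spondin list to 0.00 for norrin signalling apart from the pair of ligand export genes at -0.16, and no gene passed an adjusted p of 0.05.

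The genes most like Wnt7b over the 15 retina libraries were named by the Pearson correlation of log2 CPM over 14781 genes, which share libraries and depth. They were Ehbp1, an endosomal trafficking gene (r = 0.902), Pde8b, a cAMP phosphodiesterase (0.889), Prkaa1, a catalytic subunit of AMP-activated kinase (0.888), Sdr42e1 (0.869) and Stoml1 (0.852). Ehbp1 lay at 97.0 to 103 CPM in tamoxifen and 89.7 to 95.5 CPM in vehicle retinas, without overlap, and Prkaa1 at 46.2 to 50.8 and 41.7 to 47.6 CPM, with overlap. Since Wnt7b was chosen by treatment, genes that track it here differ by treatment too, and none of the 5 passed the threshold in edgeR's test. Over all 43 libraries, where tissue sets most of the spread, genes among the 5 most alike were Mpv17l (r = 0.964), Aldh1b1, a mitochondrial aldehyde dehydrogenase (0.960), Grid1, a delta glutamate receptor (0.957), and Dyrk3, a kinase (0.956). Of these, Mpv17l lay at 17.9 to 26.7 CPM in tamoxifen and 17.7 to 20.6 CPM in vehicle retinas, with overlap.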

How the data were processed

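In 1 table per tissue the authors deposited estimated counts per gene, marked raw in the column names. Gene models came from RefSeq, per the file headers, and GRCm38, mm10 and DESeq are named in the submitters' processing notes. The aligner, the counter and any strand setting are not given in the sources. Of the nonzero values, 17.7% to 23.4% were whole to within 0.001 across the tissues, and 32891 of 36172 gene IDs were found in the RefSeq table used for older symbols. Columns were tied to samples through the animal numbers in the titles, and the hippocampus of 965 was not used here.

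Counts were rounded, filtered with filterByExpr (minimum count 10, minimum total 15), scaled by TMM and fitted per tissue with edgeR's quasi-likelihood test (edgeR 4.0.16, R 4.3.3), with 1 mean for each of 4 groups of sex and treatment and tamoxifen effects averaged over the sexes. The Benjamini-Hochberg adjustment ran over all genes of a tissue, and calls needed an adjusted p under 0.05. Standard errors come from the fold change and its F statistic. The same animals gave both brain tissues, so a joint fit was also made with animal as the replicate block. Deviations of the cortex and hippocampus of 1 animal from their group means correlated at -0.179 to 0.263 over 13 animals. DESeq2 1.42.0 was an alternative. On simulated data, 100% of 200 genes changed by 1 on the log2 scale were called in each tissue. Of the calls, 3.85% (cortex, 14534 genes), 6.10% (hippocampus, 15195) and 6.98% (retina, 14599) were unchanged genes. The changed genes were drawn only from genes above a set level, and 1 fixed low spread was given to all genes. The simulation therefore does not show how often changes of low or variable genes would be called.

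Wnt7b, the gene lists and the tests were chosen with earlier results of these data known. Named besides Wnt7b and Wnt7a were pathway genes past the threshold, up to 2 genes of smallest p per list and tissue, the 5 genes most like Wnt7b, genes within 500 kb, and leading marker genes. Of 240 list genes, 2 were matched under an older symbol. Of the 240, 4 genes of the cell type lists are not reported here and were left out of the lists' values.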

Additional observations from a re-analysis of the deposited data

Results flagged for a closer look

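Single libraries far from the others of their group were looked for in 26 sets, each of 1 gene in 1 group of 4 libraries, with Dixon's test at the 95% level. It flags about 1 in 20 sets of normally distributed values by chance. That rate does not hold for sets with many 0 values: where the other 3 libraries are at 0, any nonzero library is flagged. Both Wnt7a sets and the female Cryaa set below are of this kind. In 5 of the 26 sets a library stood apart. Wnt7a in the female tamoxifen retinas was at 0.126 CPM in animal 951 and 0 in the other 3. In the male tamoxifen retinas Wnt7a was at 0.620 CPM in animal 959 and 0 in the other 3. Both animals also stood apart for the lens gene Cryaa, at 39.2 CPM in 951 against 0 in the other females, and at 155 CPM in 959 against 0 to 14.1 in the other males. Wnt7b itself was not far from its group in either animal. Mobp in the female tamoxifen retinas was at 0.483 CPM in animal 953, from 5 counts, against 0.123 to 0.152 in the other 3. What set these libraries apart was not tested.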

How the results depend on the processing

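Pooled Wnt7b levels in the retina were recomputed with CPM of the table total, with unrounded counts, without the lens-rich libraries and leaving out each animal. Leaving out each animal gave 1.51 to 1.93 CPM in female tamoxifen, 1.28 to 1.89 in male tamoxifen, 0.0231 to 0.0681 in male vehicle and 0 in female vehicle retinas. The other alternatives gave 1.51 to 1.75 CPM in female and 1.61 to 2.0 CPM in male tamoxifen retinas. All lay within 1 SD of the main value. Leaving out 1 animal can hardly move a pooled level further than that, so this limit tests little. Against the hippocampus in place of the cortex, the retina percentage was 2.99 for Wnt7b, 1.10 for the median forebrain neuron gene and 0.972 for the median oligodendrocyte gene. Leaving out each library gave Wnt7b tamoxifen effects of 0.13 to 0.27 in the cortex and -0.019 to 0.053 in the hippocampus, where the sign turned without animal 951 (-0.019) or 959 (-0.0055), and sex differences of 0.02 to 0.15 in the cortex and 0.20 to 0.27 in the hippocampus. Without the libraries rich in choroid plexus transcripts (Ttr above 500 CPM, an alternative chosen after seeing the data), the cortical tamoxifen effect was 0.11 (unadjusted p = 0.283, edgeR), against 0.19 with them, the hippocampal tamoxifen effect -0.022 and the cortical sex difference -0.0094. The cause was not tested, and the calls were as before. With animal as the replicate block, the hippocampus minus cortex effect was -0.22 ± 0.10 (unadjusted p = 0.0486, adjusted p = 1, edgeR), with 0 genes called and 714 at an unadjusted p under 0.05, so the pairing changed no call.

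Counts of genes called moved more. In the cortex 89 became 178 with DESeq2, 35 without the choroid plexus-rich libraries and 31 to 97 leaving out each library. In the hippocampus 10 became 60, 0 and 2 to 11 in the same order. In the retina 7 became 59 with DESeq2, 15 with no filter on low counts and 4 to 16 leaving out each library. Pathway calls went from 0 to 1 with DESeq2 in the cortex and in the hippocampus, and lay between 0 and 1 leaving out each cortex library, with 1 without animal 963. The low retina counts limit Wnt7b there: 3 counts over the 3 female vehicle libraries equal 0.0976 CPM.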
